A study of Mus musculus with 6 samples.

Results

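The genes described here are 48 genes of cell proliferation, all of which have a row among the 23361 genes measured by RNA-sequencing in mouse circumvallate and foliate (CV/Fol) taste cells. They were chosen by name, with earlier results of these data known. The members fall into 14 genes of DNA replication, 9 genes of entry into the cycle (G1/S) and 25 genes of mitosis. Isolated taste cells of C57BL/6 mice were collected at 2 months of age into 3 pools of 4 mice and at 6 months into 3 pools of 3 mice, with 1 library per pool and with no genetic change or drug in either group. The cells were freed from the papillae with enzymes and gathered by capillary, so each pool can hold taste cells of every type and cells around the buds. In 1 place the submitters' design text gives the younger age as 3 months, whereas the sample labels give 2 months. Each age has a single FPKM value per gene (mapped fragments scaled by transcript length and by the size of the library), which is the authors' estimate over the 3 libraries. Differences therefore have no replicate check here, and no SD or p-value is given. The number of reads behind each value is likewise unknown.

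Taste cells are short-lived and are replaced from dividing progenitors that express keratins 5 and 14 at the base of and around the taste bud. A dividing cell first passes from G1 into S phase under D-type and E-type cyclins and their kinases, which free E2F factors to transcribe the replication genes. The MCM helicase is loaded on origins, nucleotides are made, and DNA is copied behind the clamp protein PCNA. Genes of mitosis are transcribed later, under B-Myb, FoxM1 and the MuvB complex, and their products condense and separate the chromosomes. In RNA of mixed cells, fewer cells of a type and less RNA per cell cannot be told apart.

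Changes are given as the difference of log2(FPKM + 1), with 2 months subtracted from 6 months, so that a positive value is a higher level at 6 months. This scale understates the change of weakly expressed genes. Pairs of FPKM values or ratios are in the order 2 months, then 6 months, and levels of different genes are compared in FPKM, which is per length. Genes were called expressed where the mean of both ages was 1 FPKM or more, which held for 12652 genes. Over these the median change was -0.01, the quartiles were -0.10 and 0.08, and 46.3% had the higher value at 6 months. Of them, 1.05% were 1.5-fold or more higher at 6 months and 1.72% were lower by that factor. Of the 48 members 47 passed this filter. Cdc6 did not pass, and Ccne2 passed only through its level at 6 months. Among the 47 members, 0 reached a 1.5-fold difference in either direction. On the same scale 3 members (Mcm5, Ccne1 and E2f1) were at least 25% higher at 6 months, as were 2.95% of all expressed genes, and 0 were at least 20% lower, as were 4.23%.

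All 14 replication genes had the higher value at 6 months, with changes from 0.04 to 0.40 and a median of 0.19, where 46.3% of expressed genes had the higher value then. Of the 14 genes, 13 lay above the upper quartile of all genes. Their levels summed to 208 FPKM in the younger and 231 FPKM in the older mice. Each of the 5 other scalings tried multiplied the 6 month values by 1.01 to 1.07, so every positive change given here stayed positive under them.

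The 6 genes of the MCM2-7 ring, the helicase that unwinds the origin, had the lowest level in Mcm3 and the highest in Mcm7 at both ages. At 6 months Mcm2, Mcm3 and Mcm4 were at 11.0, 10.3 and 10.9 FPKM. Mcm2, Mcm3, Mcm4 and Mcm5 were close to each other at 2 months, at 9.47, 9.0003, 9.73 and 9.42 FPKM, and Mcm6 (16.8 and 18.7 FPKM) and Mcm7 (20.1 and 21.6 FPKM) were higher at both ages. Mcm5 went from 9.42 to 12.7 FPKM, a change of 0.40, which was the highest of the 48 members on this scale and above that of 98.0% of all genes. With a pseudocount of 0.1, the weakly expressed Cdc6 (0.51) and Ccne2 (0.50) were above Mcm5 (0.43). In GRCm38 the Mcm5 gene spans bases 75109569 to 75128439 of chromosome 8, with 17 exons in its longest transcript. The changes of the other MCM genes were 0.19 for Mcm2, 0.17 for Mcm3, and 0.15 for both Mcm4 and Mcm6. Mcm7 had 0.10.

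Cdt1 and Cdc6, whose products load the helicase on the origin, were at lower levels than the ring itself. Cdt1 went from 5.59 to 6.94 FPKM, a change of 0.27. Cdc6 was the weakest of all members, at 0.771 FPKM in the younger and 1.14 FPKM in the older mice, and its change of 0.27 is a plain ratio of 1.47. Gins2, a subunit of the complex that turns the loaded ring into an active helicase, was at 7.15 and 8.92 FPKM, a change of 0.28.

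Pcna, the sliding clamp of the replicative polymerases, was the most abundant replication gene, and with values of 82.6 and 85.0 FPKM at the respective ages it also had the smallest change of the 14, 0.04. Both subunits of ribonucleotide reductase, which makes deoxynucleotides, had close changes, with Rrm1 at 12.0 and 13.9 FPKM (0.19) and Rrm2 at 7.76 and 8.98 FPKM (0.19). The ratio of Rrm1 to Rrm2 was 1.54 at both ages. Tyms, which makes thymidylate, was at 3.59 and 4.18 FPKM, a change of 0.18. Tk1, the thymidine kinase of S phase, had the largest change of these 5 genes, from 13.9 to 17.3 FPKM (0.30).

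**Figure D1:**
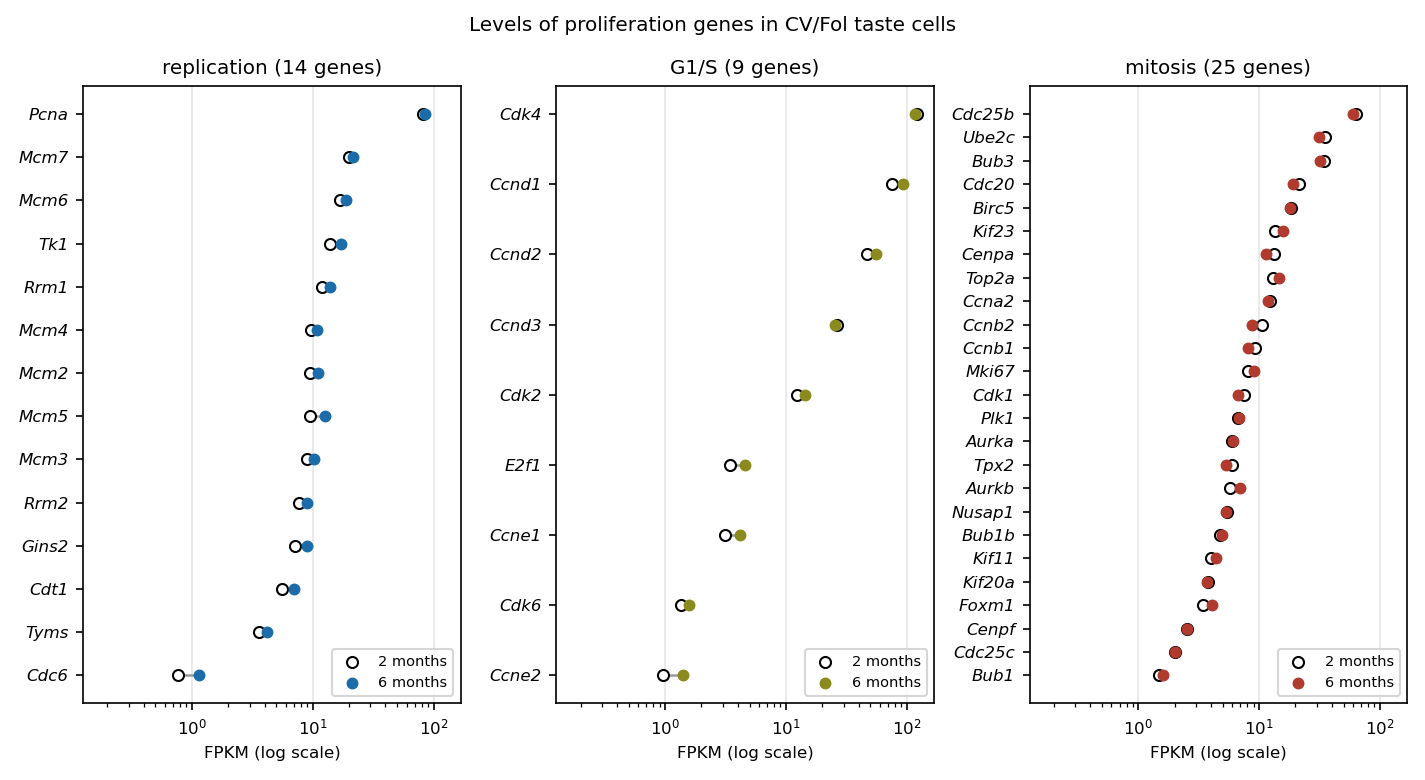
FPKM on a log axis (horizontal) of each of the 48 members (vertical), at 2 months (open points) and 6 months (filled points), in panels for replication, G1/S and mitosis; each point is the single value of an age, with no error. The filled points lie to the right of the open points for all 14 replication genes, whereas the mitosis panel holds both orders. Of its 25 genes, 15 were lower at 6 months as deposited and 7 under the scaling that raised the 6 month values most. Of expressed genes, 53.7% were lower as deposited and 70.7% were higher under that scaling.

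Of the 9 G1/S genes, 7 had the higher value at 6 months, where 46.3% of expressed genes had the higher value then. Their median change was 0.23. With both ages scaled to the same summed FPKM, all 9 were higher, as were 62.7% of expressed genes. As deposited, the 9 G1/S genes summed to 292 and 317 FPKM. The D-type cyclins, which couple outside signals to the cycle, were abundant. Ccnd1 went from 76.1 to 92.3 FPKM (0.28) and Ccnd2 from 47.3 to 55.5 FPKM (0.23), whereas Ccnd3 was at 26.5 and 25.4 FPKM (-0.06). The ratio of Ccnd1 to Ccnd3 was 2.87 at 2 months and 3.63 at 6 months.

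Of the kinases that D-type cyclins bind, Cdk4 was the most abundant of all members, at 121 and 117 FPKM, and Cdk6 was weak, at 1.36 and 1.56 FPKM. Cdk4 was 88.5 times Cdk6 at 2 months and 75.1 times at 6 months. The change was -0.04 for Cdk4 and 0.12 for Cdk6. The small negative changes of Cdk4 and Ccnd3 were positive (0.02 and 0.00) when both ages were scaled to the same summed FPKM. Cdk2, the partner of E-type cyclins, went from 12.3 to 14.3 FPKM, a change of 0.20.

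E-type cyclins and E2f1, which act at the start of S phase, were weakly expressed and had the largest changes of the G1/S genes. Ccne1 went from 3.14 to 4.20 FPKM (0.33), Ccne2 from 0.970 to 1.42 FPKM (0.29) and E2f1 from 3.48 to 4.61 FPKM (0.33). As plain ratios of 6 to 2 months, these were 1.34, 1.46 and 1.33. The change of E2f1 was above that of 97.1% of all genes. Its gene spans bases 154559407 to 154569892 of chromosome 2 in GRCm38.

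The 25 mitosis genes did not share a direction. As deposited, 10 had the higher and 15 the lower value at 6 months, where 53.7% of expressed genes had the lower value, and the median change was -0.02. The sign of this median turned with the scaling. It was 0.01 with the same upper quartile, where 13 of 25 mitosis genes and 54.2% of expressed genes were higher. With the same summed FPKM outside small RNA genes it was 0.06, where 18 of 25 mitosis genes and 70.7% of expressed genes were higher. All genes shifted with the mitosis genes, so the mitosis median stayed within 0.1 of the median of all genes under each scaling. The summed level was 312 FPKM in the younger and 301 FPKM in the older mice, and the changes ran from -0.24 (Ccnb2) to 0.24 (Aurkb).

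Among the cyclins and kinases that bring on mitosis, the B-type cyclins and their kinase had the lower values at 6 months. Ccnb2 went from 10.5 to 8.79 FPKM, the lowest change of the 48 members (-0.24), and 7.82% of all genes had a lower one. Its gene spans bases 70407692 to 70421547 of chromosome 9 in GRCm38, with 9 exons in the longest transcript. Ccnb1 was at 9.20 and 8.06 FPKM (-0.17) and Cdk1, the kinase both cyclins activate, at 7.49 and 6.75 FPKM (-0.13). These 3 genes stayed lower under each scaling tried, but the scalings were too small to turn changes of this size. The ratio of Ccnb1 to Cdk1 was 1.23 at 2 months and 1.19 at 6 months. Ccna2, a cyclin of both S phase and mitosis, was at 12.4 and 11.8 FPKM (-0.06), a difference that was 0.03 with the same summed FPKM outside small RNA genes.

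Of the phosphatases that activate Cdk1, Cdc25b was abundant, at 63.3 and 59.6 FPKM (-0.09), and Cdc25c was at 2.02 and 2.01 FPKM (-0.01). The mitotic kinases Plk1 and Aurka had nearly equal values at both ages, 6.74 and 6.85 FPKM for Plk1 (0.02) and 5.99 and 6.12 FPKM for Aurka (0.03). Aurkb, the kinase of the chromosomal passenger complex, went from 5.74 to 6.94 FPKM (0.24), and Birc5, the survivin subunit of that complex, was at 18.3 and 18.1 FPKM (-0.02). Foxm1, a transcription factor of the mitosis genes, was at 3.47 and 4.09 FPKM (0.19).

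Genes of the chromosomes and spindle were split. Mki67, which encodes the Ki67 protein that coats mitotic chromosomes and is stained as a marker of cycling cells, was at 8.13 FPKM in the younger and 9.08 FPKM in the older mice, a change of 0.14. Top2a, the topoisomerase that untangles sister chromatids, was at 13.1 and 14.5 FPKM (0.14), and the ratio of Mki67 to Top2a was 0.623 and 0.626. Kif23, a motor of the central spindle, had the largest change of this group, from 13.5 to 15.9 FPKM (0.22). Kif11, the motor that separates the spindle poles, was at 4.04 and 4.42 FPKM (0.11). Kif20a, another motor of the central spindle, was at 3.81 and 3.73 FPKM (-0.02).

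On the other side stood Cenpa, the histone variant of the centromere, with 13.3 and 11.4 FPKM (-0.20), and Tpx2, which activates Aurora A on spindle microtubules, with 5.95 and 5.30 FPKM (-0.14). Cenpf, a kinetochore protein, and Nusap1, a spindle protein, had changes of -0.01 and -0.03, at 2.53 and 2.52 FPKM and at 5.45 and 5.33 FPKM.

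The checkpoint genes and the ubiquitin pathway that ends mitosis summed to 97.1 FPKM in the younger and 89.5 FPKM in the older mice. Cdc20, the activator of the anaphase-promoting complex, went from 21.3 to 19.3 FPKM (-0.14), and Ube2c, the ubiquitin-conjugating enzyme of that complex, from 35.1 to 31.5 FPKM (-0.15). The ratio of Ube2c to Cdc20 was 1.65 at 2 months and 1.64 at 6 months. Of the checkpoint proteins, Bub1 was at 1.496 and 1.616 FPKM (0.07), Bub1b at 4.72 and 4.94 FPKM (0.05) and Bub3 at 34.4 and 32.2 FPKM (-0.09). Bub3 was 23.0 times Bub1 at 2 months and 19.9 times at 6 months. The small negative changes of 8 mitosis genes (Birc5, Bub3, Ccna2, Cdc25b, Cdc25c, Cenpf, Kif20a and Nusap1) turned positive under at least 1 other scaling. Those of Cdk1, Ccnb1, Ccnb2, Cenpa, Tpx2, Cdc20 and Ube2c were -0.13 or lower as deposited. Each scaling shifted a change by less than 0.1, so none tried could have turned them.

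Set side by side, the replication genes summed to 0.666 of the mitosis genes at 2 months and to 0.769 at 6 months, a ratio that no scaling of the ages can change. For single genes the ratio of Cdt1 to Ccnb1 was 0.607 and 0.861, and that of Mcm5 to Ccnb2 was 0.894 and 1.45. The pairs of genes were picked after their values had been seen, and the last of them joins the genes at either end of the range.

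**Figure D2:**
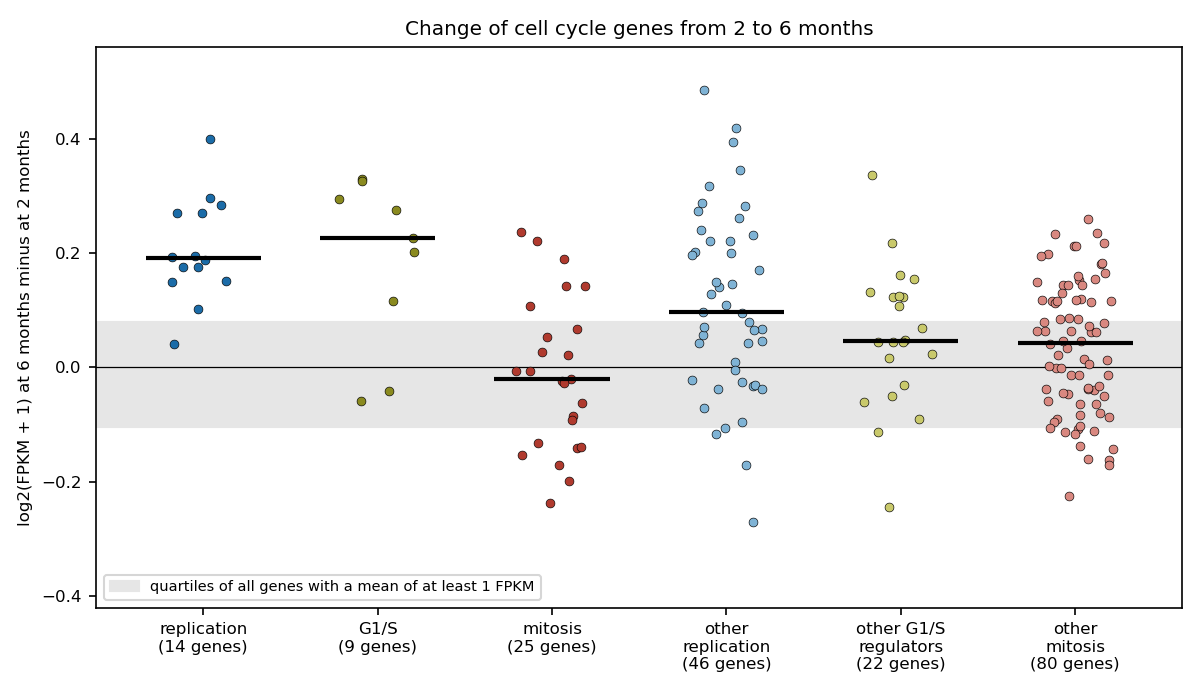
Difference of log2(FPKM + 1), 6 minus 2 months (vertical), for the 3 groups of members and for 3 lists of other cell cycle genes (horizontal); each point is a gene, bars are medians over the genes shown, and the grey band spans the quartiles of all expressed genes. The 14 replication genes lie above 0 and 13 of them above the band, and the mitosis genes lie on both sides of it with a median of -0.02 that turned positive under 4 of the 5 other scalings.

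Promoter sequences were examined for letters that the choice of genes did not use. RefSeq windows of 250 bases before to 50 bases after the transcription start of GRCm38.p6 were matched for 37 of the 48 members, in 40 windows. Windows of 5 of these members are shown, for the 2 expressed replication genes with the highest changes among those holding E2F-type letters, and for the mitosis genes with the lowest 2 changes and the highest change among those with a window. Each covers 170 bases before to 30 bases after the start, 5′ to 3′ on the strand of the gene. Capitals mark the letters searched on both strands, which for E2F-type motifs were GCGGGAA, with the alternatives GCGCCAA as well as GCGCGAA, then TTTGAA or else TTCGAA for the cell cycle homology region (CHR, the element bound by MuvB complexes), and CCAAT for the box bound by NF-Y. The last letters of an E2F-type match can overlap the start of a CCAAT box.
Mcm5, chr8:75109339-75109538, plus strand: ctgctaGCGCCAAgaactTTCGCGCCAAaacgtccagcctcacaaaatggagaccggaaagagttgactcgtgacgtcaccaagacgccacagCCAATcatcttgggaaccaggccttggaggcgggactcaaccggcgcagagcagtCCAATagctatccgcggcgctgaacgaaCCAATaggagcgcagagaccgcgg
Cdt1, chr8:122567845-122568044, plus strand: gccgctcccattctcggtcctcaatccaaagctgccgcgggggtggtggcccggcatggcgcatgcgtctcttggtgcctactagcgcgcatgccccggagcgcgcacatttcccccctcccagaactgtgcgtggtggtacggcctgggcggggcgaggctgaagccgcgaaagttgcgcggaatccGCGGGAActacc
Ccnb2, chr9:70421525-70421724, minus strand: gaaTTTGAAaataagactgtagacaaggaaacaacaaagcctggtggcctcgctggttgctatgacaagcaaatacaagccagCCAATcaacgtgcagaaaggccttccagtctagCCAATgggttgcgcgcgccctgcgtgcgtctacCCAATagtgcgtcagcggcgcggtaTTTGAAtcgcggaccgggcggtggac
Cenpa, chr5:30666716-30666915, plus strand: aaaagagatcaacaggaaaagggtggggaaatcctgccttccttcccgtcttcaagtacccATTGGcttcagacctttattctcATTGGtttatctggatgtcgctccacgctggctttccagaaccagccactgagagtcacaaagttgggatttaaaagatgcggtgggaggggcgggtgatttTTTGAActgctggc
Kif23, chr9:61946770-61946969, minus strand: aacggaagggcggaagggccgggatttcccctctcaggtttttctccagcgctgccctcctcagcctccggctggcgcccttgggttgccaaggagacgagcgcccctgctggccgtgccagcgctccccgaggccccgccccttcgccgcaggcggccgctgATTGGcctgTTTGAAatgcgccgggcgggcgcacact

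The Mcm5 window, with the gene at 0.40, holds 3 E2F-type matches close together, which begin 164, 152 and 149 bases before the start, and no CHR match. The Cdt1 window holds E2F-type matches 18 and 33 bases after the start, of which the latter lies beyond the stretch shown. In the windows of Ccnb2 (-0.24), Cenpa (-0.20) and Kif23 (0.22) a CHR match begins 4, 16 and 2 bases after the start, with CCAAT boxes before it. Ccnb2 has another CHR match 167 bases before the start and 3 CCAAT boxes, with their first bases 87, 54 and 21 bases before the start. Cenpa has 2 boxes, 109 and 86 bases before the start, and Kif23 has 1, 7 bases before it, all on the other strand.

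E2F-type letters were present in 8 of 13 windows of replication genes (61.5%), 1 of 7 of G1/S genes (14.3%), 3 of 20 of mitosis genes (15%) and 8.07% of 32851 windows of all genes. CHR letters were present in 17 of 20 windows of mitosis genes (85.0%), 2 of 13 of replication genes (15.4%), 0 of 7 of G1/S genes and 19.2% of all windows. The windows with CHR letters among the mitosis genes belong to 16 genes, and the match nearest the start began within 50 bases of it in 15 of them and within 100 bases in all 16. The nearest of all matches of a gene was taken, which favours short distances. Distances were not measured for other genes, so these counts have no share to be compared with. All 17 mitosis windows with CHR letters also held a CCAAT box, whereas CHR and CCAAT letters occurred together in 7.52% of all windows. CCAAT boxes were present in 9 of 13 windows of replication genes, 2 of 7 of G1/S genes, 18 of 20 of mitosis genes and 37.4% of all windows. Over the 11789 windows of expressed genes alone, E2F-type letters were present in 14.1% and CHR letters in 13.7%. A match of letters is a description of the sequence and not evidence of binding. Bub3, Mcm7 and Ccnd3 have 2 windows each, which overlap for Bub3.

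**Figure D3:**
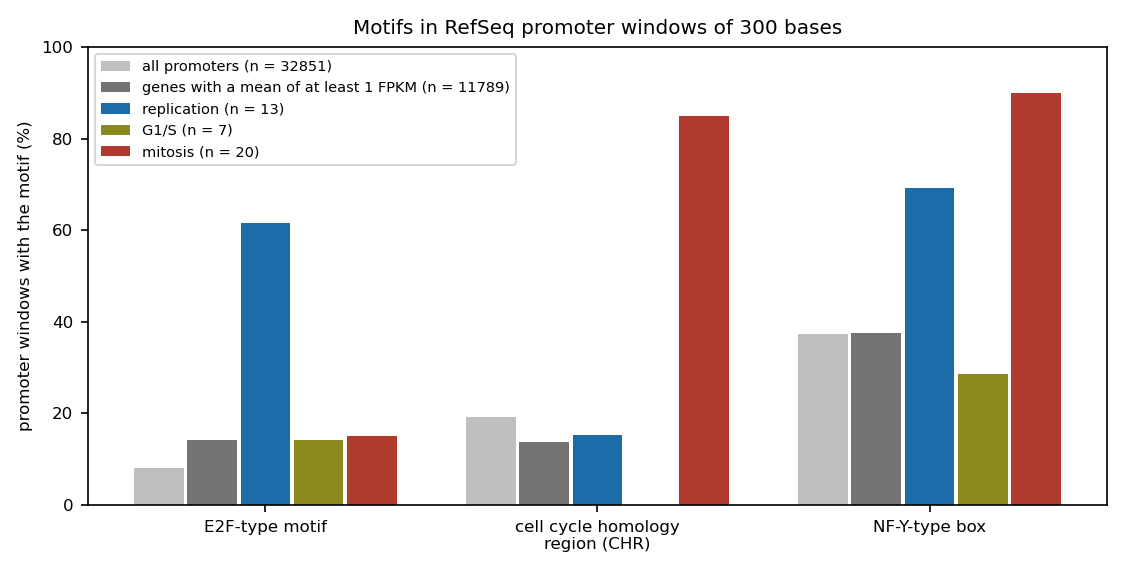
Share in percent (vertical, from 0) of RefSeq promoter windows that hold E2F-type, CHR or NF-Y-type (CCAAT) letters (horizontal), for all windows, windows of expressed genes, and the 3 groups of members; n is the number of windows. E2F-type letters were present in 61.5% of replication windows and CHR letters in 85.0% of mitosis windows, against 8.07% and 19.2% of all windows.

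The change with age was then set against the letters in the promoter, a split made after the values had been seen. Across all expressed genes with a window, the median change was -0.0036 for 1554 genes with E2F-type letters and -0.02 for 620 genes with CHR and CCAAT letters, and 48.6% and 42.7% of them were higher at 6 months. Among the members, 16 mitosis genes with CHR and CCAAT letters had a median change of 0.01 and 8 were higher. Of the replication genes, 6 with E2F-type letters and 4 with neither E2F-type nor CHR letters had medians of 0.18 and 0.18.

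Other genes of the same machinery were counted from lists that do not overlap the members. The lists were chosen with earlier results of these data known, so they are no independent check of the members. Of 46 other expressed replication genes, 33 were higher at 6 months (71.7%, against 46.3% of expressed genes), the median was 0.10 and 0 differed by 1.5-fold on the log2(FPKM + 1) scale, although Pole did as a plain ratio. The highest changes were those of Uhrf1, which reads newly copied DNA for methylation, from 7.43 to 10.8 FPKM (0.48), of Pole, the catalytic subunit of DNA polymerase epsilon, from 1.06 to 1.75 FPKM (0.42), and of Timeless, which protects the fork, from 2.01 to 2.95 FPKM (0.39). The lowest were those of Dut, which clears dUTP, from 15.3 to 12.5 FPKM (-0.27), of Gins4 from 15.01 to 13.2 FPKM (-0.17) and of Tipin, the partner of Timeless, from 14.4 to 13.2 FPKM (-0.12).

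The GINS complex was split as well. Gins1 and Gins3, named after their values had been seen, were at 2.95 and 3.83 FPKM (0.29) and at 1.93 and 2.57 FPKM (0.28), close to the change of the member Gins2 and opposite to Gins4. The 2 most abundant of the other replication genes by the mean of both ages were Rpa3, a subunit of the single-strand binding protein, at 25.3 and 24.1 FPKM (-0.07), and Rfc2, of the clamp loader, at 21.1 and 21.7 FPKM (0.04).

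Of 80 other mitosis genes, 47 were higher at 6 months (58.8%, against 46.3% of expressed genes). The median was 0.04 and 0 differed by 1.5-fold on that scale. Ncapd2, a condensin subunit, had the highest change (0.26, 7.93 to 9.69 FPKM), followed by Iqgap3 (0.23) and Ncapg2, of condensin II (0.23). Ckap2, a spindle protein, had the lowest (-0.22, 8.70 to 7.31 FPKM), followed by Nek2, a centrosome kinase (-0.17), and Nuf2, of the kinetochore (-0.16). Cenpb and Anapc5 had the highest means of both ages, at 111 and 109 FPKM (-0.03) and at 57.3 and 59.8 FPKM (0.06).

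Of 22 other regulators of G1/S, 16 were higher at 6 months (72.7%, against 46.3% of expressed genes). The median was 0.05 and 0 were past 1.5-fold on that scale. E2f8, a repressor that closes the E2F wave, had the highest change (0.34, 2.67 to 3.63 FPKM), ahead of Skp2, which targets the inhibitor p27 for degradation (0.22), and E2f6 (0.16). Ccng2, a cyclin of cells leaving the cycle, had the lowest (-0.24, 22.1 to 18.5 FPKM), and Ccnh and Mnat1, partners in the CDK-activating kinase, had -0.11 and -0.09. Tfdp1, the partner of E2F factors, had the highest mean of both ages, at 49.6 and 53.5 FPKM (0.11), followed by Cdca7 at 41.5 and 45.6 FPKM (0.13).

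The changes of all genes were related to transcript length, and this touches the members. Over 12546 genes with a length, the Spearman correlation of length with the change was 0.31, which is a description across genes of the same libraries. The genes were split by length into 4 classes of nearly equal number, with edges at 1839, 2973 and 4483 bases. From the shortest to the longest class, the median change was -0.08, -0.04, 0.00 and 0.05, and the share of genes higher at 6 months was 29.5%, 38.8%, 50.7% and 66.1%. Among the 25 mitosis genes the correlation with length was 0.43. The 3 in the shortest class (Cenpa, Ccnb2 and Cdc20) had a median of -0.20. The 5 in the longest class, among them Mki67 and Top2a, had a median of 0.14. Single genes departed from this, with 0.24 for Aurkb at 1950 bases and -0.01 for Cenpf at 11130 bases.

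Over the 13 replication genes past the filter the correlation with length was 0.03. So few genes, 8 of them in the third class, cannot tell this value from the 0.31 of all genes. Lengths were those of the longest GENCODE transcript, which can differ from the RefSeq transcripts behind the FPKM values. The 13 members had medians of 0.17, 0.19 and 0.18 in the 3 shorter classes, where all genes had -0.08, -0.04 and 0.00. None of them lay in the longest class. All 13 were above the median of all genes in their class, and 7 of 9 G1/S genes and 11 of 25 mitosis genes were. Relative to their classes the medians were 0.19 for replication, 0.24 for G1/S and -0.03 for mitosis. The correlation of GC content with the change was 0.06 over all genes and 0.45 over the 13 replication genes.

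**Figure D4:**
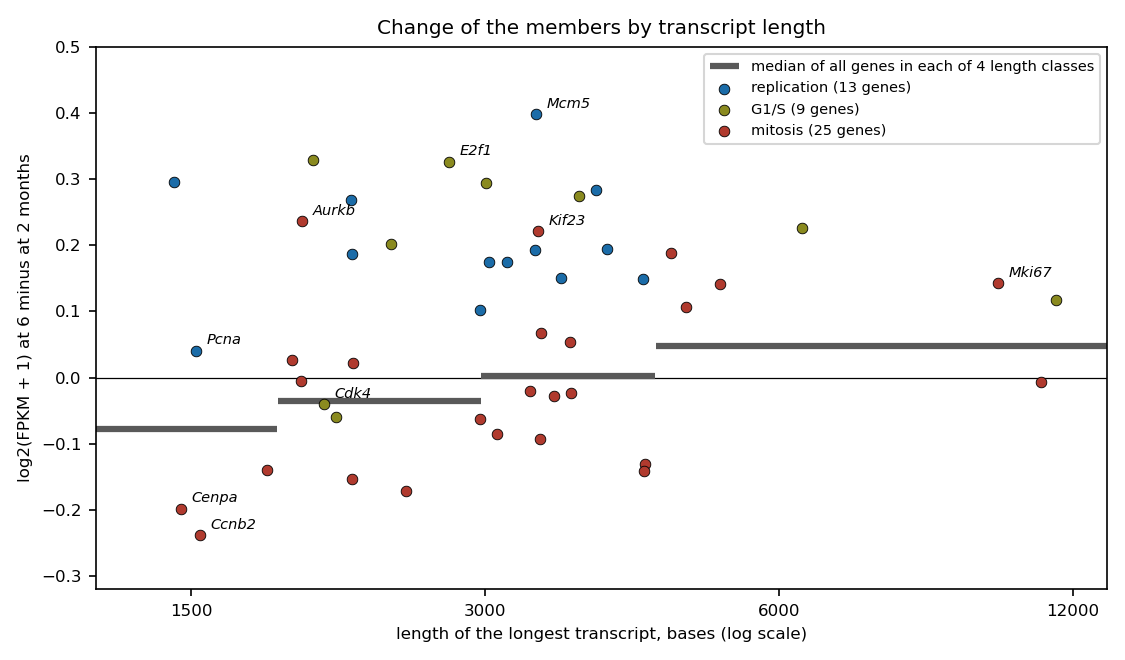
Difference of log2(FPKM + 1), 6 minus 2 months (vertical), against the length of the longest annotated transcript on a log axis (horizontal) for the 47 expressed members; grey lines are the medians of all genes in each of 4 classes of length, cut at the edges of the plot. In the values as deposited, the replication points lie above the grey line of their class for all 13 genes. Of the mitosis points, Cenpa and Ccnb2 lie low on the left and Mki67 lies higher on the right. Aurkb (1950 bases, 0.24) and Cenpf (11130 bases, -0.01) go the other way.

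Markers of the cells in the pools were checked beside these values. The 5 markers of type II taste cells summed to 212 FPKM in the younger and 219 FPKM in the older mice, with 3 of 5 higher at 6 months. The 3 of type I cells summed to 76.1 and 66.4 FPKM, most of it Entpd2 (66.1 and 57.7 FPKM). Of these 3 markers 2 were lower, and Slc1a3, below the filter, was higher (0.710 and 0.988 FPKM). The 5 of type III cells, all higher at 6 months, summed to 31.3 and 36.3 FPKM. The 4 keratin and channel genes of the whole taste bud, all lower, summed to 778 and 634 FPKM. Markers of basal progenitors, the cells known to divide, were expressed at 4852 and 4823 FPKM in sum, with 4 of 8 higher at 6 months. Krt5 went from 2180 to 1962 FPKM (-0.15) and Krt14 from 1287 to 1533 FPKM (0.25). All 4 stem cell genes (Lgr5, Lgr6, Bmi1 and Gli1) were expressed, at 46.2 and 47.1 FPKM in sum with 2 of 4 higher.

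Markers of other cells also differed between the ages. The 6 expressed markers of differentiated keratinocytes were all lower at 6 months. Krt4 is listed at 7334 FPKM for 2 months and at 0 for 6 months, and Krt13 is listed at 0 at both ages, where an exact 0 can be a failed estimate. Without Krt4 the list summed to 2301 and 1527 FPKM. Skeletal muscle markers were higher in 6 of 6 genes, with sums of 9.25 and 20.7 FPKM, and the 9 measured leukocyte markers, of which 6 were higher, summed to 20.9 and 19.4 FPKM. Fibroblast markers summed to 43.6 and 28.7 FPKM, most of it Dcn (42.03 and 27.3 FPKM), with Col1a1, Col1a2 and Col3a1 between 0.0518 and 0.144 FPKM. Endothelial and nerve markers summed to 1.97 and 1.95 FPKM and to 18.7 and 12.5 FPKM. The part of these cells in the values of the proliferation genes was not tested.

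Reads of some members may be shared with other genes. Exons of 17 of the 48 members overlap exons of another gene in the GENCODE annotation, and per the study's methods the reads were mapped with the default settings of TopHat, which treat a library as unstranded. Reads of overlapping genes on opposite strands could then not be told apart. The longest overlap was 2758 bases between Gins2 and Gse1. Kif20a shares 1271 bases with Cdc23 and Cdk4 shares 641 bases with Tspan31. Ube2c shares 592 bases with the muscle gene Tnnc2, which went from 2.14 to 5.57 FPKM. Some members also match a pseudogene elsewhere in the genome. Mcm7 matches Gm5487 over 2157 bases with 97.7% identity. Pcna and Ccnb1 each have a copy with 99.2% identity, over 781 bases in Pcna-ps2 and 1287 bases in Ccnb1-ps, so the values of Pcna, Ccnb1 and Mcm7 are uncertain to the extent that such reads were split.

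**Figure D5:**
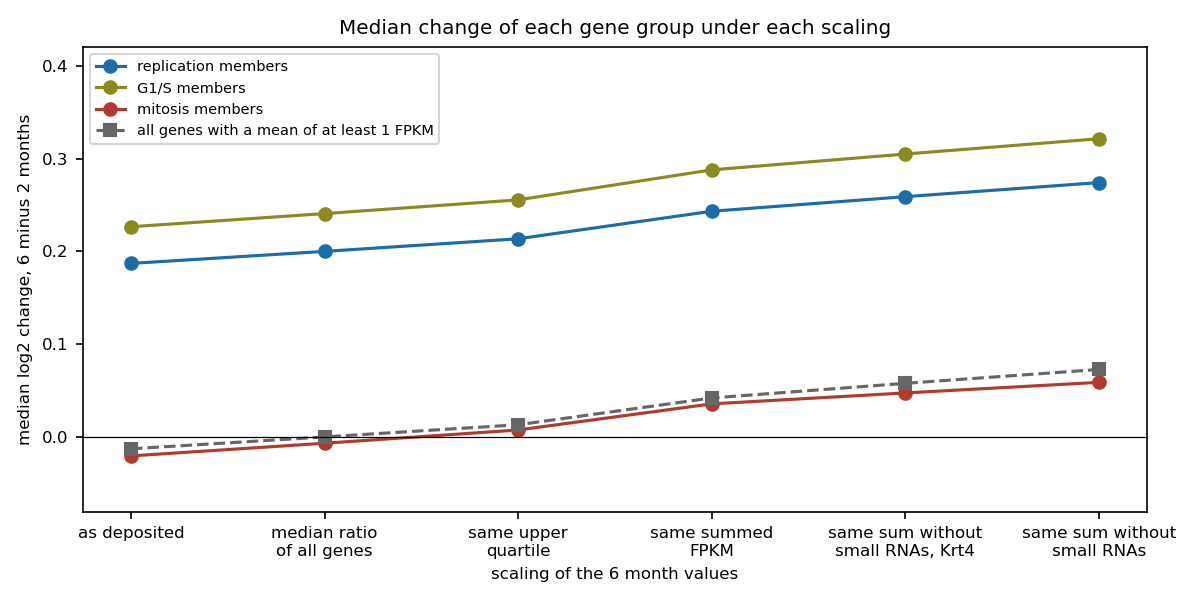
Median difference of log2(FPKM + 1), 6 minus 2 months (vertical), of the 3 groups of members and of all expressed genes, under each scaling of the 6 month values (horizontal). The replication and G1/S medians lie above the line of all genes, from 0.19 to 0.27 and from 0.23 to 0.32. The mitosis median lies near that line and crosses 0, from -0.02 to 0.06. Each scaling multiplied all 6 month values by the same factor, so the distances between the lines were nearly fixed in advance.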

How the data were processed

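Libraries of poly-A RNA were made from 3 pools of CV/Fol taste cells per age. The authors mapped reads to GRCm38/mm10 with TopHat2 2.0.7 and RefSeq annotation, and Cufflinks 2.1.1 and Cuffdiff gave the deposited FPKM values, 1 per gene and age. The library normalization is not given in the sources used here. The file also holds a p-value per gene from the authors' own comparison, which was not used. The column marked B was taken as 6 months and S as 2 months from the sample titles.

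Changes were differences of log2(FPKM + 1), and medians covered genes whose mean reached 1 FPKM. Without values per library no test or SD could be computed, and depth is unknown. The members and lists were chosen with earlier results of these data known. All 48 members are named, with the 3 highest and 3 lowest changes and 2 highest levels of each other pathway list. Ages were rescaled to the same upper quartile, median ratio or summed FPKM, with and without 760 microRNA and small nucleolar RNA genes. Transcript length, GC content and overlaps came from GENCODE M21 (GRCm38), promoters from RefSeq (GRCm38.p6), and similar transcripts from blastn 2.17.0. Scripts ran in Python 3.11.15 with pandas 2.3.3, numpy 2.4.6 and matplotlib 3.10.9.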

Additional observations from a re-analysis of the deposited data

How the results depend on the processing

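No paired analysis was possible because each age has 1 value per gene, and for the same reason no library could be left out. On the log2(FPKM + 1) scale, 0 members were past 1.5-fold, and 3 were at least 25% higher at 6 months (0 at least 20% lower). At 2-fold and under every other setting tried, 0 members passed in either direction. As plain ratios Ccne2 (1.46) and Cdc6 (1.47, below the filter) were also more than 25% higher. The group medians moved by less than 0.1 under every setting tried. These were a pseudocount of 0.1, no filter, a stricter filter at 5 FPKM, 5 scalings, leaving out the gene with the largest change (Mcm5, Ccne1 or Ccnb2) and subtracting the median of the length class. The last of these and the scaling without Krt4 were chosen after the data had been seen. The limit of 0.1 is a chosen number and does not measure the missing spread between replicates. No scaling could pass it, because the 6 month values were multiplied by 1.07 at most. The mitosis median ran from -0.07 with the filter at 5 FPKM to 0.06 with the same summed FPKM outside small RNA genes. Of single members, Ccne2 (to 0.50) and Cdc6 (to 0.51) moved by more than 0.1 with a pseudocount of 0.1. Between 2 and 10 of the 48 members changed sign under a scaling. All 5 scalings raised the 6 month values. A gene already higher at 6 months, as all 14 replication genes were, could therefore not change sign. Of all FPKM, small RNA genes held 8.67% in the younger and 10.8% in the older mice.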
